A study of Homo sapiens with 18 samples.

Results

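The insulin-like growth factor binding proteins IGFBP1 to IGFBP7 were followed through an experiment that combined RAD21 silencing with MycER activation in U2OS cells, a human osteosarcoma line. The members are the 7 genes of those names among the 23399 genes of the expression table. The family was chosen on earlier results of these same libraries, its levels in all 8 groups included, so what is given for its members is a description and carries no p-value.

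All 18 RNA-seq libraries came from U2OS-MycER cells, so every group carried the retroviral transgene, Myc fused to the estrogen receptor, which 4-hydroxytamoxifen (OHT) switches on. Cells were reverse-transfected with a control siRNA (siCtrl, against Renilla luciferase) or with a pool aimed at RAD21, which is part of the cohesin ring (siRAD21). They received 400 nM OHT or ethanol at that moment and were collected after 24 or 48 h. The 8 groups are siCtrl, siCtrl OHT, siRAD21 and siRAD21 OHT at each time, where a name without OHT means ethanol. The siCtrl and siCtrl OHT groups at 48 h had 3 libraries and the other 6 groups had 2, all from 1 cell line and 1 RAD21 siRNA pool.

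IGF binding proteins are secreted carriers that hold insulin-like growth factors, prolong their stay in body fluids and either keep them from or bring them to the IGF1 receptor, until proteases cut the carrier and release the growth factor. IGFBP5 is a product of osteoblasts and is stored in bone matrix, IGFBP4 is known for restraining IGF action in bone, IGFBP6 prefers IGF2 over IGF1, and IGFBP7 binds IGFs only weakly. IGFBP3 is the main carrier in blood, IGFBP1 is a liver product that insulin represses, and IGFBP2 is abundant in fetal tissue and in several tumors.

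The 2 siRAD21 OHT libraries at 48 h differed by no more than sampling noise. Their chi-square per gene was 0.959, or 0.992 once the removal of duplicate reads was allowed for. The pairs of libraries within the groups other than siRAD21 24 h gave 1.365 to 3.78 before that allowance. These 2 siRAD21 OHT libraries were counted as 1 sample with no SD in the means. Their log2 levels over all genes gave r = 0.992, within the 0.990 to 0.994 of the other pairs, so by that measure they were not unusually alike. The limma fit kept both, and averaging them was an alternative. Its standard errors, calls and p-values for that group thus rest on 2 libraries with no spread seen beyond sampling noise. The siRAD21 24 h pair, at 1.015 before the allowance and 1.065 after it, was also close to sampling noise and was kept as 2. Library depths were 9647501 to 12678599 reads. RAD21 was at 93.1 ± 3.96 eRPKM (SD, n = 3) in siCtrl 48 h and 11.2 ± 0.105 (n = 2) in siRAD21 48 h, and at 70.7 ± 2.04 and 18.4 ± 0.366 (n = 2 each) at 24 h. The eRPKM counts reads in exons, divided by the transcript's length and the library's depth. Levels can thus be compared between genes, except that the removal of duplicate reads understates the highest. Of the osteoblast markers, SPARC was at 60.6 to 86.4 eRPKM and COL1A1 at 14.5 to 65.8, whereas COL1A2 stayed at or below 0.109 and IBSP at or below 0.0628. The markers PTPRC, CD3E and ALB of blood and liver did not exceed 0.322 eRPKM, while the epithelial EPCAM reached 12.9. Of 10 markers of other cell types 3 were expressed enough to be tested, namely EPCAM, CDH1 (up to 1.74 eRPKM) and MYH1 of muscle (up to 2.95). At most 2 of them changed in a comparison. This was in siRAD21 OHT at 48 h against siRAD21 and against siCtrl OHT, where 28.6% and 16.2% of all genes changed. The part of these markers in the results below was not tested.

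The promoter windows of the 2 most abundant members, IGFBP5 and IGFBP6, are shown because their transcripts moved in opposite directions after RAD21 silencing at 48 h. Both are the 250 bases before the RefSeq start on GRCh38.p14, at chr2:216695550-216695799 on the minus strand for IGFBP5 and chr12:53097417-53097666 on the plus strand for IGFBP6. Capitals mark TATTTAA in IGFBP5, and the motifs CANNTG and also GGGCGG in IGFBP6. The TATTTAA motif was added to the search after the IGFBP5 window had been read.
IGFBP5: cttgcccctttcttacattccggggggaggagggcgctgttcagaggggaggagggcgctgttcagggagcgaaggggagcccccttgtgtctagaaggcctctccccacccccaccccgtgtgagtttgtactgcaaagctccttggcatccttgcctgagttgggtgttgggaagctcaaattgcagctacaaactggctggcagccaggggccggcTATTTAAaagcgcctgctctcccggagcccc
IGFBP6: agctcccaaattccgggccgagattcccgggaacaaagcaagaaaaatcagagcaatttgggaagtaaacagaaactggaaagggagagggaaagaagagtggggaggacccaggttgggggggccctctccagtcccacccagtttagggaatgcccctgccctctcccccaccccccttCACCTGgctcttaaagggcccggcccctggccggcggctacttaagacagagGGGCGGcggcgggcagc
Both windows held 61.2% G and C, with 8 CpG in IGFBP5 and 9 in IGFBP6. The table gave 7 windows for 5 members (IGFBP2 to IGFBP6), and CACGTG, the E-box that Myc and Max are known to bind, was in 0 of the 7 and in 6.34% of all 35116 windows of this length. The looser CANNTG, which covers CACGTG as well, was in the IGFBP6 window and in 61.8% of all windows. GGGCGG, also in the IGFBP6 window, was in 42.6% of all windows. TATTTAA, in the IGFBP5 window, was in 4.17% of all windows, and TATAA, found among the members in IGFBP4 alone, was in 18.9%. All motifs were read on both strands, and a match describes letters and not binding.

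On GRCh37, the build of the files, IGFBP2 (chr2:217497551-217529159, plus strand) and IGFBP5 (chr2:217536828-217560272, minus strand) are neighbors with 7668 bases between their ends. IGFBP1 (chr7:45927959-45933259, plus strand) and IGFBP3 (chr7:45951844-45961473, minus strand) form another such pair, 18584 bases apart. IGFBP4 is at chr17:38599702-38613977 (plus strand), IGFBP6 at chr12:53491220-53496129 (plus strand) and IGFBP7 at chr4:57896939-57976551 (minus strand). IGFBP5 shares up to 487 exon bases with DIRC3-AS1, and IGFBP7 up to 260 with IGFBP7-AS1 or POLR2B, all on the opposite strand. The library kit kept no strand, so reads in these bases cannot be assigned to 1 gene.

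U2OS-MycER cells expressed 3 members well, 2 weakly and 2 barely. Averaged over the libraries, IGFBP6 was at 36.3 eRPKM, IGFBP5 at 24.7, IGFBP7 at 12.3, IGFBP4 at 1.15 and IGFBP2 at 0.616. IGFBP3 had 38 reads in all libraries together and at most 0.174 eRPKM. IGFBP1 had 5 reads in all and was at 0 in 14 libraries, where 3 reads would have given 0.145 to 0.190 eRPKM. IGFBP1 and IGFBP3 were thus near or under what 3 reads would show (0.0903 to 0.119 eRPKM for IGFBP3), and no test was run on them. The 2 siCtrl 24 h libraries of IGFBP3 (0.174 and 0.120 eRPKM, from 5 and 4 reads) lay above those of siRAD21 24 h (0 and 0.0301, from 0 and 1 read). The 4 members with a mean of at least 1 eRPKM (IGFBP4 to IGFBP7) entered the fit, and the other 3 are given as levels.

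IGFBP5 varied most. At 24 h it was at 30.1 and 33.0 eRPKM in siCtrl, 8.68 and 7.27 in siCtrl OHT, 22.3 and 22.5 in siRAD21, and 6.85 and 6.40 in siRAD21 OHT. At 48 h it was at 91.5, 75.6 and 78.7 in siCtrl, 16.2, 12.1 and 14.4 in siCtrl OHT, 9.12 and 7.82 in siRAD21, and 0.747 and 0.865 in siRAD21 OHT. The siCtrl libraries were the highest at each time and no other group overlapped them. The lowest library still had 45 reads of IGFBP5, and the highest 5564. IGFBP5 was the only member whose level ran over more than 1 order of magnitude among the members in the fit, and the order of its groups was siCtrl, siCtrl OHT, siRAD21 and siRAD21 OHT at 48 h but siCtrl, siRAD21, siCtrl OHT and siRAD21 OHT at 24 h. All neighbors in these orders were apart.

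IGFBP6 moved within a narrower range. At 24 h it was at 45.5 and 40.3 eRPKM in siCtrl, 29.3 and 33.8 in siCtrl OHT, 53.8 and 50.5 in siRAD21, and 34.3 and 40.4 in siRAD21 OHT. At 48 h it was at 31.2, 32.9 and 33.5 in siCtrl, 22.7, 21.6 and 22.3 in siCtrl OHT, 52.3 and 53.0 in siRAD21, and 28.5 and 26.7 in siRAD21 OHT. The siRAD21 libraries were the highest at both times and the siCtrl OHT libraries the lowest, and at 24 h the siCtrl and siRAD21 OHT libraries overlapped.

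IGFBP7 followed the same order at 48 h, with siRAD21 above siCtrl. At 24 h it was at 13.3 and 10.7 eRPKM in siCtrl, 7.65 and 6.94 in siCtrl OHT, 17.2 and 15.3 in siRAD21, and 7.18 and 8.65 in siRAD21 OHT. At 48 h it was at 12.7, 12.6 and 12.6 in siCtrl, 6.37, 6.22 and 6.32 in siCtrl OHT, 28.7 and 26.7 in siRAD21, and 10.5 and 11.5 in siRAD21 OHT. The OHT groups lay below their ethanol groups with no overlap in all 4 pairs, and the 2 OHT groups at 24 h overlapped each other.

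IGFBP4 and IGFBP2 were low throughout. IGFBP4 was at 1.31 and 1.16 eRPKM in siCtrl, 1.24 and 0.779 in siCtrl OHT, 1.82 and 1.56 in siRAD21 and 1.38 and 1.78 in siRAD21 OHT at 24 h. At 48 h it was at 0.964, 0.938 and 1.20 in siCtrl, 0.917, 1.11 and 0.726 in siCtrl OHT, 1.27 and 1.49 in siRAD21, and 0.510 and 0.455 in siRAD21 OHT. The siRAD21 OHT libraries at 48 h were the lowest of all 18. IGFBP2 ranged from 0.344 to 1.03 eRPKM and was highest in siRAD21 48 h (1.03 and 0.883), 1.66-fold above siCtrl 48 h, with libraries apart. IGFBP2, whose gene lies beside IGFBP5, was thus higher in siRAD21 48 h, where IGFBP5 was 9.67-fold lower than in siCtrl 48 h. The opposite directions did not hold with OHT. In siRAD21 OHT 48 h IGFBP2 was 1.83-fold and IGFBP5 10.5-fold lower than in siRAD21 48 h, with libraries apart. IGFBP2 then averaged 0.522 eRPKM and overlapped siCtrl 48 h (0.577), although IGFBP5 was at its lowest.

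**Figure D1:**
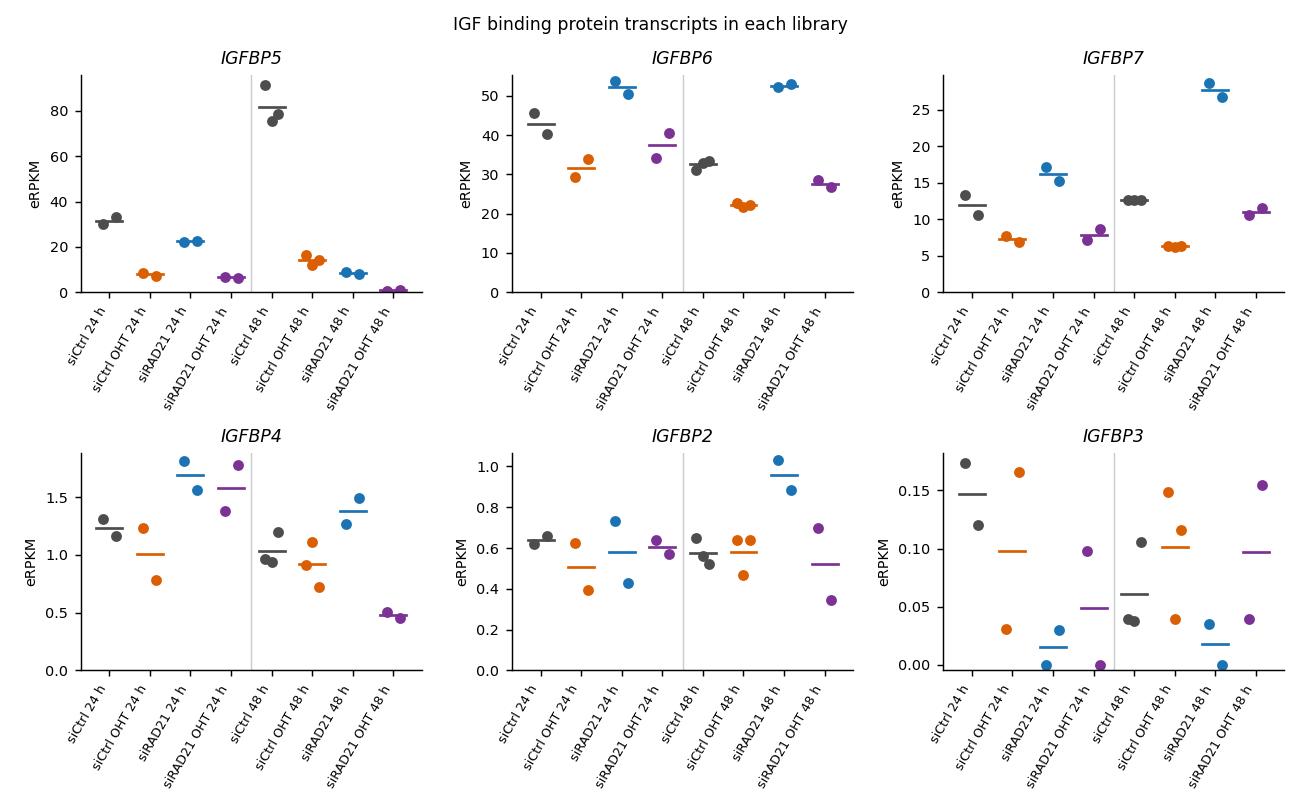
Level of IGFBP2 to IGFBP7 (eRPKM, linear axis with its own range for each gene) in each of the 8 groups, with 1 point per library and a line at the group mean. IGFBP5 runs from 91.5 eRPKM in siCtrl 48 h down to 0.747 in siRAD21 OHT 48 h, while IGFBP6 stays between 21.6 and 53.8.

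The makeup of the family changed with these levels. The members added up to 129 ± 7.51 eRPKM (SD, n = 3) in siCtrl 48 h, of which IGFBP5 made up 63.5%, IGFBP6 25.3% and IGFBP7 9.82%. In siRAD21 48 h the sum was 91.2 ± 1.83 (n = 2), with 9.28% IGFBP5, 57.7% IGFBP6 and 30.4% IGFBP7. In siCtrl OHT 48 h it was 44.4 ± 2.85 (n = 3), with 31.96% IGFBP5 and 50.1% IGFBP6. In siRAD21 OHT 48 h it was 40.5, with 1.99% IGFBP5 and 68.1% IGFBP6. IGFBP6 was the most abundant member in 7 groups and IGFBP5 in siCtrl 48 h, and IGFBP7 stood above IGFBP5 in siRAD21 48 h and in both siRAD21 OHT groups. Among the 3 abundant members, neighbors in the order overlapped between libraries in siCtrl OHT 24 h only (IGFBP5 and IGFBP7). IGFBP4 stood above IGFBP2 except in siRAD21 OHT 48 h, where the 2 overlapped. At 24 h the sum was 88.5 ± 3.60 in siCtrl, 93.1 ± 3.94 in siRAD21, 48.4 ± 1.33 in siCtrl OHT and 54.1 ± 5.23 in siRAD21 OHT (n = 2 each).

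**Figure D2:**
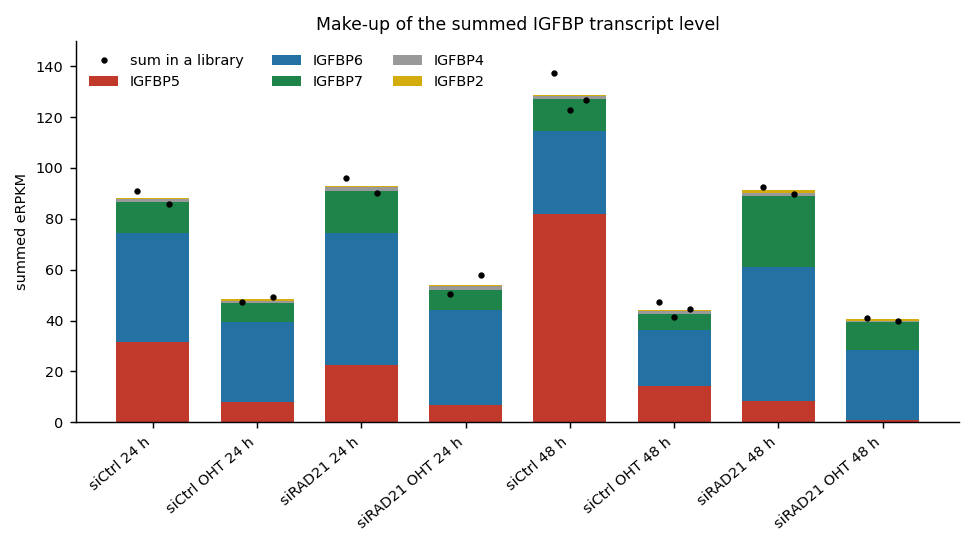
Summed eRPKM of the members in each of the 8 groups, as stacked bars of group means for IGFBP2 and IGFBP4 to IGFBP7 (IGFBP1 and IGFBP3 are too low to see), with a dot at the sum in each library. IGFBP5 makes up 63.5% of the sum in siCtrl 48 h and 1.99% in siRAD21 OHT 48 h, and the sum is 129 in the first and 40.5 in the second.

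The first question was how the family responded to RAD21 silencing. At 48 h IGFBP5 was 9.67-fold lower in siRAD21 than in siCtrl, IGFBP7 2.20-fold higher and IGFBP6 1.62-fold higher, with all libraries apart. The log2 fold changes were -3.20 ± 0.12 (SE) for IGFBP5, 1.10 ± 0.09 for IGFBP7, 0.69 ± 0.08 for IGFBP6 and 0.29 ± 0.16 for IGFBP4. A gene was counted as called when limma gave it an adjusted p under 0.05 together with a change of over 0.5 on the log2 scale, in either direction. By that count 3 of the 4 members were called, in a comparison that called 23.7% of the 14993 genes tested. At 24 h 0 members were called, against 8.43% of all genes. IGFBP5 was then at -0.48 ± 0.13 and IGFBP7 at 0.43 ± 0.10, the signs they had at 48 h, and IGFBP5 passed the fold threshold at -0.51 with each library centered on its median and at -0.53 with the removal of duplicate reads undone. Without the first siCtrl library of 24 h 2 members were called, and without the second siRAD21 library 1.

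The same comparison was made with MycER active. At 48 h IGFBP5 was 17.7-fold lower in siRAD21 OHT than in siCtrl OHT (log2 fold change -3.49 ± 0.12) and IGFBP7 1.75-fold higher (0.76 ± 0.09). IGFBP4 was at -0.52 ± 0.16, just past the fold threshold and no longer called with those siRAD21 OHT libraries averaged, without either of them or without the second siCtrl OHT library, and IGFBP6 at 0.31 ± 0.08. In all 3 members were called, IGFBP5 and IGFBP4 lower and IGFBP7 higher, against 16.2% of all genes. At 24 h 0 were called, against 6.47%, and IGFBP5 was at -0.25 ± 0.13. IGFBP4, at 0.48 ± 0.18 at 24 h, had the other sign there.

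The next question was how the family responded to OHT, which in these cells activates MycER. In siCtrl cells IGFBP5 was 3.96-fold lower with OHT at 24 h and 5.76-fold lower at 48 h (log2 fold changes -1.92 ± 0.13 and -2.49 ± 0.10). IGFBP7 was at -0.67 ± 0.10 and -0.95 ± 0.08, and IGFBP6 at -0.44 ± 0.08 and -0.54 ± 0.07. IGFBP4 was at -0.22 ± 0.18 and -0.12 ± 0.15, with overlapping libraries. Of the 4 members 2 were called at 24 h (8.78% of all genes) and 3 at 48 h (17.9%), all of them lower. A group without MycER that received OHT was not analysed here, so an effect of OHT alone and one of MycER cannot be told apart.

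In siRAD21 cells OHT was followed by lower levels as well. IGFBP5 was 3.38-fold lower at 24 h and 10.5-fold lower at 48 h (-1.69 ± 0.13 and -2.78 ± 0.13), IGFBP7 2.05- and 2.51-fold lower (-0.996 ± 0.10 and -1.29 ± 0.10), and IGFBP6 1.396- and 1.91-fold lower (-0.48 ± 0.08 and -0.92 ± 0.08). IGFBP4 was at -0.08 ± 0.18 at 24 h and 2.86-fold lower at 48 h (-0.93 ± 0.18). The called members were 2 at 24 h, where 11.9% of all genes were called, and 4 at 48 h, where 28.6% were. At 48 h siRAD21 OHT stood 102-fold below siCtrl for IGFBP5. In bulk RNA a change in the cells present cannot be told from a change in RNA per cell, and all values are relative to the library's total. With OHT at 48 h, 3 of the 6 tested osteoblast markers (RUNX2, COL1A1 and SPP1) were also called lower, in siCtrl and in siRAD21. Of all genes, 17.9% were called in the first of these and 28.6% in the second. The median log2 fold change of the 6 was -0.52 and -0.71, beside -0.01 and -0.02 over all genes tested. The 12 markers listed added up to 135.6 to 167.5 eRPKM in siCtrl 48 h and 98.7 to 122.7 in siCtrl OHT 48 h, and to 174.5 to 180.4 in siRAD21 48 h and 109.8 to 110.7 in siRAD21 OHT 48 h. Their part in the results for the family was not tested.

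**Figure D3:**
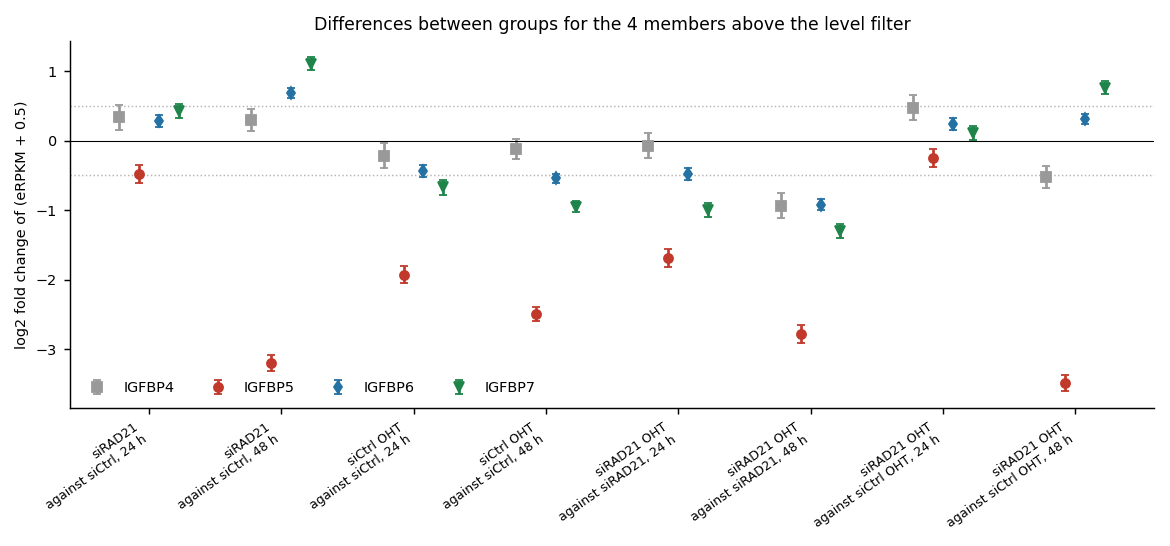
Log2 fold change of eRPKM + 0.5 (points, bars ± SE, limma) of IGFBP4 to IGFBP7 in the comparisons of siRNA and of OHT at 24 and 48 h, with dotted lines at 0.5 and -0.5. IGFBP5 lies below 0 in each, down to -3.49, while IGFBP7 lies at 1.10 for siRAD21 at 48 h and at -0.95 and -1.29 for OHT at 48 h.

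Whether the OHT response differed between siRAD21 and siCtrl cells was read from the siRNA by OHT interaction, the difference of the log2 fold changes. At 48 h it was -0.82 ± 0.23 for IGFBP4, the 1 member called (against 7.3% of all genes), and it was -0.38 ± 0.11 for IGFBP6, -0.34 ± 0.13 for IGFBP7 and -0.29 ± 0.16 for IGFBP5. IGFBP4 was no longer called once the 2 siRAD21 OHT 48 h libraries were averaged, or without any 1 of 6 libraries of these groups. The IGFBP5 value turned with the setting, to 0.06 with a pseudocount of 1 and 0.05 with duplicate removal undone, against -0.72 with a pseudocount of 0.1. On the linear scale IGFBP5 lost 67.7 eRPKM with OHT in siCtrl and 7.67 in siRAD21 cells at 48 h. At 24 h the interaction called 0 genes in limma (percent called 0), although 906 had an unadjusted p below 0.05 and voom on recovered reads called 19, and the members lay between -0.32 and 0.24.

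Between 24 and 48 h IGFBP5 went opposite ways in the 2 siRNA groups. These times also differ in the length of silencing and of OHT exposure, and only siCtrl at 48 against 24 h was fitted, so the other changes with time are ratios of means. In siCtrl it was 2.60-fold higher at 48 than at 24 h (log2 fold change 1.36 ± 0.12) and it was the 1 member called, against 12.4% of all genes. In siCtrl OHT it was 1.78-fold higher at 48 h, while in siRAD21 it was 2.65-fold lower and in siRAD21 OHT 8.22-fold lower. IGFBP7 was 1.71-fold higher at 48 h in siRAD21 (27.7 against 16.2 eRPKM) and 1.05-fold higher in siCtrl, where libraries overlapped. IGFBP6 was 1.32-fold lower in siCtrl at 48 h and stayed at 52.1 and 52.6 in siRAD21.

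Removal of duplicate reads keeps 1 read per position and caps the level a gene can reach, at 158 to 207 eRPKM in these libraries, so the highest IGFBP5 values are understated. With this undone by calculation, IGFBP5 was at 96.5 eRPKM in siCtrl 48 h and the ratios grew to 12.2-fold for siRAD21, 7.22-fold for OHT and 132-fold for siRAD21 OHT. IGFBP6 was at 32.3 eRPKM in siCtrl 48 h with this undone, beside 32.5 as deposited. The shares of the family sum above were taken from the deposited levels.

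The other genes of the IGF pathway, from lists of ligands, receptors, proteases, partners, related domain proteins and signalling, numbered 97, of which 91 were in the table and 74 were tested. With siRAD21 at 48 h 20 of the 74 changed, 16 of them higher, and at 24 h 8 (6 higher), beside 23.7% and 8.43% of all genes. Of all genes called there, 1883 of 3559 at 48 h and 874 of 1264 at 24 h were higher. With OHT in siCtrl 12 changed at 24 h (9 lower) and 18 at 48 h (16 lower), beside 8.78% and 17.9% of all genes. With OHT in siRAD21 12 changed at 24 h (11 lower) and 24 at 48 h (20 lower), beside 11.9% and 28.6%. Calls over all genes leaned lower with OHT as well. In siCtrl 765 of 1316 were lower at 24 h and 1518 of 2684 at 48 h. In siRAD21 1142 of 1785 were lower at 24 h and 2428 of 4281 at 48 h. The median log2 fold change of the 74 was 0.11 for siRAD21 at 48 h and -0.24 for OHT in siRAD21 at 48 h, beside -0.01 and -0.02 over all genes tested. In siRAD21 OHT against siCtrl OHT 7 changed at 24 h (4 higher) and 13 at 48 h (8 higher, or 8 of 11 after quantile normalization), beside 6.47% and 16.2%. Between siCtrl at 48 and 24 h 11 changed, 5 higher and 6 lower, beside 12.4% of all genes, and this split turned to 9 and 3 with each library centered on its median and to 5 and 3 after quantile normalization.

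Of the ligands, IGF1 averaged 0.938 eRPKM and IGF2 0.0369, so neither was tested. IGF1 reached 1.82 ± 0.496 (n = 2) in siRAD21 48 h and was at 0.900 ± 0.120 (n = 3) in siCtrl 48 h. Of the receptors, IGF1R, which signals for both ligands, averaged 18.4 eRPKM and fell with OHT in siRAD21 at 48 h (log2 fold change -0.68 ± 0.14, limma adjusted p = 0.00074). IGF2R, which clears IGF2, rose with siRAD21 at 48 h (0.92 ± 0.20, limma adjusted p = 0.0012), from 22.5 ± 5.85 (n = 3) to 42.2 ± 2.10 eRPKM (n = 2), and fell with OHT in siRAD21 at 48 h (-0.87 ± 0.22, limma adjusted p = 0.0034). The insulin receptor INSR, at 1.92 eRPKM, passed in 0 comparisons.

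Of the proteases that cut binding proteins and their inhibitors, 15 of 22 were tested, and 5 rose and 1 fell with siRAD21 at 48 h, while 0 rose and 6 fell with OHT in siCtrl at 48 h. Over all genes tested, 23.7% were called in the first of these (1883 higher and 1676 lower) and 17.9% in the second (1166 higher and 1518 lower). PAPPA, a metalloproteinase that cuts IGFBP4, rose with siRAD21 at 48 h (0.91 ± 0.10, limma adjusted p = 3.8e-06), from 2.55 ± 0.108 (n = 3) to 5.22 ± 0.131 eRPKM (n = 2). Its inhibitor STC1 fell at 24 and 48 h (-1.82 ± 0.15 and -1.92 ± 0.13, limma adjusted p = 1.1e-06 and 3.3e-08), to 0.393 ± 0.0878 eRPKM (n = 2) from 2.88 ± 0.182 (n = 3) at 48 h, and STC2, a second inhibitor, averaged 0.458 and was not tested. HTRA1, a serine protease that cuts IGFBP5, fell with OHT at 48 h in siCtrl (-1.35 ± 0.13, limma adjusted p = 8.1e-07) and in siRAD21 (-1.28 ± 0.15, limma adjusted p = 7.5e-06). The matrix metalloproteinase MMP3 rose with siRAD21 at 48 h (1.03 ± 0.13, limma adjusted p = 1.1e-05) and so it did under OHT (1.52 ± 0.13, limma adjusted p = 4.8e-07), though the interaction was not called for it. MMP9 rose with siRAD21 at 48 h (0.75 ± 0.11, limma adjusted p = 3.8e-05) and fell with OHT in siRAD21 (-1.41 ± 0.12, limma adjusted p = 2.3e-07). With OHT at 48 h MMP9 was also called lower in siCtrl (-0.77 to -0.57 on leaving out each library).

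Of the partners of the binding proteins in the matrix, at the cell surface and in the nucleus, 12 of 13 were tested, and with OHT at 48 h 3 fell in siCtrl and 6 in siRAD21, and 0 rose, where 17.9% and 28.6% of all genes were called. SPP1 (osteopontin) fell with OHT at 48 h in siCtrl and in siRAD21 (-1.48 ± 0.08 and -0.98 ± 0.09, limma adjusted p = 4.2e-09 and 9e-07). FN1 (fibronectin) likewise fell in siCtrl and in siRAD21 (-1.13 ± 0.08 and -1.13 ± 0.10, limma adjusted p = 1e-07 and 6.1e-07). LRP1, an endocytic receptor, fell with OHT in siRAD21 at 48 h (-1.75 ± 0.30, limma adjusted p = 0.00017), while its siCtrl 48 h libraries spread from 7.24 to 14.5 eRPKM. With OHT in siCtrl at 48 h LRP1 was also called lower (-1.14 to -0.57 on leaving out each library). That call was lost without the first siCtrl or the second siCtrl OHT library, and the interaction was not called for LRP1. The nuclear receptor NR4A1 rose with siRAD21 at 48 h (1.09 ± 0.16, limma adjusted p = 3.7e-05).

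WISP1, a matricellular protein with an IGFBP-type domain, rose with siRAD21 at 24 h (1.37 ± 0.14, limma adjusted p = 1e-05) and fell with OHT in siRAD21 at 48 h (-1.92 ± 0.14, limma adjusted p = 6.8e-08). With OHT in siCtrl at 48 h WISP1 was also called lower (-1.81 to -1.67 on leaving out each library), and the interaction was not called for it. Of 11 tested proteins with that domain, 3 rose and 0 fell with siRAD21 at 48 h, where 23.7% of all genes were called. Of the mRNA-binding proteins named for IGF2, IGF2BP1 fell with OHT at 48 h in siCtrl and siRAD21 (-0.75 ± 0.13 and -0.69 ± 0.15, limma adjusted p = 0.0002 and 0.0015, the second no longer called after quantile normalization, at -0.42), and IGF2BP2 (38.2 eRPKM) and IGF2BP3 (3.74) passed in 0 comparisons. IRS1, which docks signalling proteins to the IGF1 and insulin receptors, fell with siRAD21 at 48 h without and with OHT (-1.41 ± 0.05 and -1.43 ± 0.05, limma adjusted p = 1.3e-10 and 2.2e-10), from 33.1 ± 1.27 (n = 3) to 12.1 ± 0.742 eRPKM (n = 2) without OHT. GRB14, an inhibitory adaptor of the insulin receptor, rose with OHT at 48 h in siRAD21 (1.34 ± 0.11, limma adjusted p = 2.3e-07), and SOS2, which activates Ras, fell there (-1.03 ± 0.10, limma adjusted p = 8.3e-07). With OHT in siCtrl at 48 h GRB14 was also called higher and SOS2 lower (1.08 to 1.19 and -0.74 to -0.64 on leaving out each library). The interaction was called for neither. Of the 31 tested signalling genes, 4 rose and 2 fell with siRAD21 at 48 h, a smaller share than the 23.7% of all genes.

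The genes around the members were read for comparison. Within 500 kb of a member's start, 43 other tested genes had a symbol that matched the annotation, and 15 of them changed in at least 1 of the 8 comparisons of siRNA or OHT. The share of all genes that changed in at least 1 of them was not worked out. With siRAD21 at 48 h 8 changed (18.6% of the 43, beside 23.7% of all genes). In each of the 8 comparisons the share of neighbors called, 4.65% to 18.6%, was below that of all genes, 6.47% to 28.6%. These comparisons share libraries and the same 43 genes. Of the 43, 17 lay near IGFBP4 and 20 near IGFBP6, while IGFBP5 had 2 tested neighbors. Beside IGFBP2 and IGFBP5, SMARCAL1 and RPL37A passed in 0 comparisons. Near IGFBP6, SOAT2, an enzyme that esterifies cholesterol and whose start is 6050 bases away, fell with siRAD21 at 48 h (-1.28, limma adjusted p = 6.4e-06) while IGFBP6 was higher, and TNS2 and RARG fell with OHT at 48 h. ESPL1, MAP3K12 and NPFF near IGFBP6 also changed in at least 1 comparison, as did ADCY1 near IGFBP1 and IGFBP3. Near IGFBP4, KRT222 fell (-1.82, limma adjusted p = 4.3e-07), TNS4 rose (1.09, limma adjusted p = 1.2e-05) and CDC6, a replication licensing factor, fell (-0.69, limma adjusted p = 1.3e-07) with siRAD21 at 48 h, and GSDMA, NR1D1, CASC3, WIPF2 and RARA changed in at least 1 comparison.

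Genes whose pattern was most like a member's were found among 10905 others with a mean of at least 5 eRPKM, by Pearson's r of the 8 group means of log2(eRPKM + 0.5). For IGFBP5 they were UGP2 (r = 0.990), PPDPF (r = 0.986) and FXYD6 (r = 0.985), and over the 18 libraries r was 0.973, 0.953 and 0.980. FXYD6, a regulator of the sodium pump, ran from 28.5 eRPKM in siCtrl 48 h to 1.51 in siRAD21 OHT 48 h, whereas UGP2 ran only from 60.01 to 25.3. For IGFBP6 they were LOC100132356 (r = 0.997), NICN1 (r = 0.990) and GALNT10 (r = 0.988), and for IGFBP7 HEATR5B (r = 0.995), TBCEL (r = 0.991) and ABAT (r = 0.988). Between members r was 0.791 for IGFBP6 with IGFBP7, 0.242 for IGFBP5 with IGFBP6 and 0.124 for IGFBP5 with IGFBP7. The points share libraries and few groups, and these values rank genes and test nothing.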

How the data were processed

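RNA was depleted of ribosomal RNA, and libraries without strand information were read as 50 bp reads. Per the labels and the paper's methods, the authors aligned reads to hg19 with TopHat2 (2.0.8 in the submitters' processing notes, which also name featureCounts 1.4.5), removed PCR duplicates and deposited an eRPKM, an RPKM over exons, for 23399 genes. The table holds no counts. Its steps gave whole reads (tolerance 0.02) for 22040 genes (94.19%), and from these depths of 9647501 to 12678599 reads. Intervals and limits from reads cover counting error only.

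Here log2(eRPKM + 0.5) of all 18 libraries was fitted with limma 3.58.1 (R 4.3.3), with 8 group means, a variance trend and no block. Genes with a mean of at least 1 eRPKM (14993) were tested, two-sided, with Benjamini-Hochberg adjustment in each of 11 comparisons. Fold changes on this scale understate those of low genes. Ratios in the text are of mean eRPKM. The study's methods call the libraries biological replicates. Numbers paired the siCtrl and siCtrl OHT libraries at 48 h, where the same numbers deviated together (r = 0.258, 0.130 and 0.157), though the labels name no shared day. The siRAD21 48 h libraries also deviated with the same numbers of siCtrl (r = 0.099 and 0.146) and of siCtrl OHT (r = 0.168 and 0.111). For siRAD21 against siCtrl at 48 h a replicate block gave 3540 calls, and the main fit without it 3559. The family, the pathway lists and the rule for named genes were chosen with earlier results of these data known. The rule takes all members, fixed ligands, receptors, PAPPA, stanniocalcins and IGF2BP genes, up to 4 called genes with a log2 fold change past 1 in each list (3 in signalling), called neighbors within 500 kb and the 3 genes most like each abundant member. On simulated data for siRAD21 OHT against siRAD21 at 48 h the procedure called most of the genes made to change. The simulated libraries were independent and had the same dispersion for every gene, unlike the real ones. How the procedure fares on the real spread cannot be judged from them. Alternatives were other pseudocounts, filters and normalizations, a replicate block, only the groups compared and leaving out each library. Others were added once the values had been seen, namely voom on recovered reads, undoing duplicate removal, averaging the libraries of siRAD21 OHT 48 h or of siRAD21 24 h, and a crossed block. Figures were drawn with Python 3.11.15 and matplotlib 3.10.9.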

Additional observations from a re-analysis of the deposited data

Results flagged for a closer look

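The response to OHT at 48 h differed between siRAD21 and siCtrl cells for 8 of the 74 tested IGF pathway genes outside the family. The test was limma's siRNA by OHT interaction on the log2 scale, which called 7.3% of all genes. More negative in siRAD21 cells were VTN, a matrix protein (-0.8984, adjusted p = 0.0385), MMP9 (-0.7497, adjusted p = 0.00418), IGF1R (-0.5823, adjusted p = 0.0376) and PAPPA (-0.542, adjusted p = 0.0194). More positive were HTRA3, a serine protease (0.5698, adjusted p = 0.0441), KAZALD1, a protein with an IGFBP-type domain (0.6066, adjusted p = 0.00491), STC1 (0.749, adjusted p = 0.0146) and SOCS1, an inhibitor of cytokine signalling (1.435, adjusted p = 0.00724). These comparisons share the siRAD21 OHT 48 h libraries, which differed by no more than sampling noise. With those 2 averaged, 4 of the 8 no longer passed limma's threshold, namely VTN (adjusted p = 0.0888), HTRA3 (adjusted p = 0.0934), IGF1R (adjusted p = 0.104) and PAPPA (adjusted p = 0.0647), while KAZALD1, MMP9, SOCS1 and STC1 still passed. STC1 did not pass when other groups were left out of the fit (adjusted p = 0.0604) or with voom (adjusted p = 0.117). The interaction of IGFBP4 at 48 h (-0.8159) is given as a description with no test, since the family was chosen on these libraries. It was no longer called with those 2 averaged, after quantile normalization or without any 1 of 6 libraries. The cause was not tested.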

How the results depend on the processing

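Across the alternatives, 1250 recomputed fold changes of members moved by less than the replicate spread, 63 moved further and 0 called values turned sign. Of the named pathway genes' values 1912 kept their side of the threshold, 49 lost it and 0 turned. Both tallies include fold changes that could not move. Leaving out a library outside the compared groups, or fitting only those groups, leaves a fold change as it was. The tallies thus do not measure how stable the values are. The number of members called for siRAD21 at 24 h (0) was 1 with centering on the median and 1 with duplicate removal undone, and 0 to 2 on leaving out each library. For siRAD21 OHT against siCtrl OHT at 24 h it was 0 to 1 on leaving out each library, with the 1 coming without the first siCtrl OHT library. For the interaction at 48 h (1, IGFBP4) it was 2 with a pseudocount of 0.1, 0 with a mean of at least 5 eRPKM (which leaves IGFBP4 out), 0 with quantile normalization, 0 with the siRAD21 OHT 48 h libraries averaged, and 0 to 1 on leaving out each library, being 0 without the second siCtrl, the second siCtrl OHT, either siRAD21 or either siRAD21 OHT library. Pathway genes called at the mean of at least 5 eRPKM were 5 for siRAD21 at 24 h and 4 for siRAD21 OHT against siCtrl OHT at 24 h. For the interaction at 48 h the 8 pathway genes became 5 with all genes, 4 with the mean of at least 5 eRPKM, 4 with only the groups compared, 4 with the siRAD21 OHT 48 h libraries averaged, 5 with the siRAD21 24 h libraries averaged, and 2 to 10 on leaving out each library, with 2 without the first siRAD21 library. Over all genes, the mean of at least 5 eRPKM, which tests fewer genes, gave 740, 2289, 742, 1653, 1024, 2794, 610, 1507, 720 and 1152 calls for siRAD21 at 24 and 48 h, OHT in siCtrl at 24 and 48 h, OHT in siRAD21 at 24 and 48 h, siRAD21 OHT against siCtrl OHT at 24 and 48 h, the interaction at 48 h and siCtrl at 48 against 24 h. The interaction at 24 h, with 0 genes called, had 5 with all genes, 12 with quantile normalization, 4 with the replicate block, 19 with voom and 0 to 1 on leaving out each library. The replicate block changed no other count by over 1.5 times, and the widest shift was 1200 calls against 1094 for the interaction at 48 h. At 24 h the siCtrl and siCtrl OHT numbers ran against each other (correlation -0.134), and a block with crossed numbers, chosen after seeing the data, gave 1340 calls. Of the 8 pathway genes of the interaction at 48 h 4 were higher and 4 lower, and 4 and 2 after quantile normalization. The causes of these shifts were not tested. Low depth limits IGFBP1 to IGFBP4.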
